A study of Mus musculus with 4 samples.

Results

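The 35 genes described here act in mitosis and chromosome segregation. They were chosen by symbol, as G2/M cyclins and kinases, checkpoint, kinetochore, spindle and cytokinesis genes. All 35 were found, each on 1 row, among the 55401 genes of the deposited table, and all 35 had enough reads to be tested. The table holds RNA sequencing counts of 4 libraries of cultured C57BL/6 mouse cells, labelled as female germline stem cells of the ovary. In 2 libraries the cells had received the solvent DMSO, and in 2 they had received daidzein, a soy isoflavone, at one concentration picked from several, with its value and the duration not given in the sources used here. Both groups grew in the same MEM-alpha medium with serum, leukemia inhibitory factor, GDNF, basic FGF and EGF. The series is titled after a gain in proliferation with daidzein, so the question for these genes is whether their transcripts differ between the groups.

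Cell division is driven by cyclin-dependent kinase 1 bound to cyclins A and B. It pushes cells into mitosis, where the kinetochores, built on centromeres, bind spindle microtubules. A checkpoint holds the anaphase-promoting complex back until all chromosomes are attached, after which cyclin B and securin are destroyed, sister chromatids part and the cell divides. Most of these genes are transcribed in G2 and mitosis and silenced in resting cells, so their transcripts are widely read as a sign of cycling cells. Their shared timing is known to depend on 2 promoter elements, the CHR (cell cycle genes homology region), bound by the DREAM and MuvB complexes, and the CCAAT box, bound by NF-Y.

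Library totals ran from 16230400 to 18537134 counts. Markers of the labelled cell type were nearly absent: 7 of 8 germline genes, among them Ddx4, Dazl, Pou5f1 and Ifitm3, had at most 10 reads over the 4 libraries, and the list summed to 73 to 97 reads per library, most of them from Zbtb16. Of 5 granulosa and theca markers 4 had 0 reads in every library, and the other, Amh, had 19 to 34 per library. The 5 stromal markers summed to 2 to 14 reads per library. The 5 endothelial and epithelial markers summed to 31 to 53, most of them from Pecam1. The 8 blood markers summed to 49293 to 54932 reads per library, nearly all from Ptprc, Kit, Gata2, Cpa3 and Adgre1. Gata1 had 55 to 87 reads per library, and the other 2, Csf1r and Cd3e, had at most 10 over the 4 libraries. The mitotic transcripts below therefore come from cultures whose RNA carries some blood markers and hardly any germline markers. In RNA from whole cultures, a change in the share of dividing cells and a change in transcript per cell cannot be told apart. Nothing in the labels says that replicates came from separate cultures, and the spread behind each p-value is that of these libraries, which may be technical.

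The promoters of these genes share sequence that the choice of genes did not use. RefSeq promoter windows, from 250 bases before to 50 bases after the start on GRCm38.p6, were at hand for 28 of the 35 genes, in 30 windows, since Ect2 and Prc1 have 2 starts. Ccna2, Cdc25c, Foxm1, Aurkb, Incenp, Tpx2 and Kif20a had no window. Searched were TTTGAA, the usual CHR, its rarer form TTCGAA, and CCAAT, each on both strands (so also as TTCAAA and ATTGG). No motif searched contains another. The lines below give the 120 bases just before the start, 5′ to 3′ on the gene's strand, for 7 genes that show the range from several matches to none, and capitals mark every match.
Cdk1, chr10:69352913-69353032, minus strand: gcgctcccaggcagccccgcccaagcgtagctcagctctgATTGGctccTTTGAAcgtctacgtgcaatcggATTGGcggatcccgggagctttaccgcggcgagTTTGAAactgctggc
Cdc20, chr4:118437344-118437463, minus strand: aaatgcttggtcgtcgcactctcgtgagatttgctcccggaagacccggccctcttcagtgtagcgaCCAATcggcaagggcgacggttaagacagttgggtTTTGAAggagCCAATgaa
Top2a, chr11:99024190-99024309, minus strand: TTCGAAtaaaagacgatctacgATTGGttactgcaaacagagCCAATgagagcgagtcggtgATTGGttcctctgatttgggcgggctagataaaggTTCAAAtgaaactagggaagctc
Kif11, chr19:37376262-37376381, plus strand: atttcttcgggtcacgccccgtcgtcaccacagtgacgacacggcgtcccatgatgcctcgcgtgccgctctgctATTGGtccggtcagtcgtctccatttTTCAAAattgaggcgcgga
Mki67, chr7:135716380-135716499, minus strand: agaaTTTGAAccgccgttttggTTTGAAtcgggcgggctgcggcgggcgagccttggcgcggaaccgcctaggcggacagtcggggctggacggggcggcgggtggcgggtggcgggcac
Ttk, chr9:83834569-83834688, plus strand: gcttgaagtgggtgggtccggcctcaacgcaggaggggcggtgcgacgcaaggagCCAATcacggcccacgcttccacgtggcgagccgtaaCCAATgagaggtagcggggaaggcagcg
Mad2l1, chr6:66535101-66535220, plus strand: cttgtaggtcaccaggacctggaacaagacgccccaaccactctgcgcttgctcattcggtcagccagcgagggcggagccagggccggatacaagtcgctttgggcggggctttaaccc
Cdk1, the mitotic kinase, has CCAAT boxes starting 80 and 48 bases before the start and CHR matches at 71 and 15 bases. Cdc20, which activates the anaphase-promoting complex, has its CHR at 18 bases, between CCAAT boxes at 53 and 8. Kif11, the motor that pushes spindle poles apart, has 1 CCAAT box at 45 bases and 1 CHR at 19. Top2a, which untangles DNA, has 3 CCAAT boxes and both CHR forms in the stretch shown. In Mki67 the CHR matches lie farther out, at 116 and 98 bases, and its 3 CCAAT boxes lie beyond the stretch. Ttk, a checkpoint kinase, shows its CCAAT pair here and has its TTTGAA 7 bases after the start, outside the stretch. Mad2l1, a checkpoint protein, has no match in its whole window.

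Over the 30 windows, TTTGAA was found in 23, or 76.7%, against 12.1% of 11088 windows of tested genes and 17.9% of all 32851 windows. It lay within 50 bases of the start in 70.0% of the windows of these genes and in 3.19% of those of tested genes. CCAAT was also found in 23 windows, 76.7%, against 38.3% for tested genes, and 15 of the 30 held at least 2, against 14.9% of windows of tested genes. A CHR of either form together with CCAAT occurred in 70.0%, against 5.89%. TTCGAA, with or without TTTGAA in the same window, occurred in 10.0%, against 2.13%. Windows of a second, fixed list of other mitotic genes lay between, with TTTGAA in 38.8% of 121. In 4 of the 28 genes, Birc5, Mad2l1, Nuf2 and Nusap1, none of the 3 motifs was found. None of these matches shows that a factor binds, and these libraries hold no binding data.

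**Figure D1:**
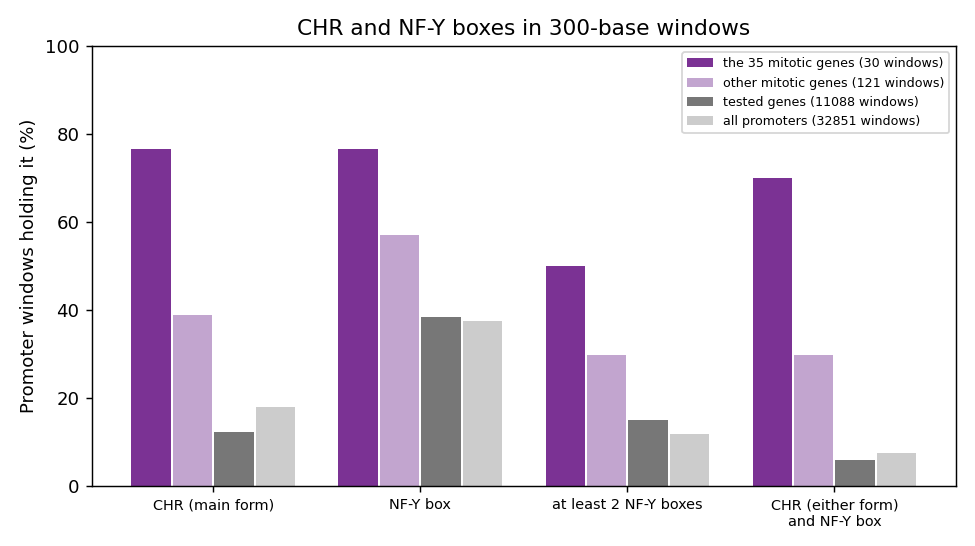
Share of 300-base promoter windows (y axis, percent) that hold a CHR (TTTGAA form), a CCAAT box (NF-Y box), at least 2 CCAAT boxes, or a CHR of either form with a CCAAT box, for the mitotic genes (30 windows), other mitotic genes (121), tested genes (11088) and all promoters (32851). The mitotic genes have the tallest bar for each element, 76.7% for the CHR against 12.1% for tested genes.

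The mitotic genes were expressed in every library of both groups. Levels between genes are compared as deposited FPKM (fragments scaled by exon length and library size), averaged over the 4 libraries. They ran from 4.80 FPKM for Cdc25c, the phosphatase that switches on Cdk1, to 192 FPKM for Cdc20, a range of 39.9-fold. The median was 33.9 FPKM. Among the 11700 tested genes, 33 of the 35 lay above the median gene by FPKM, and their median percentile was 83.9. Raw counts ran from 371 to 12383 reads per gene and library. Together these genes took 0.604% and 0.626% of all counts with DMSO and 0.614% and 0.615% with daidzein, so the daidzein libraries lay between the DMSO libraries.

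**Figure D2:**
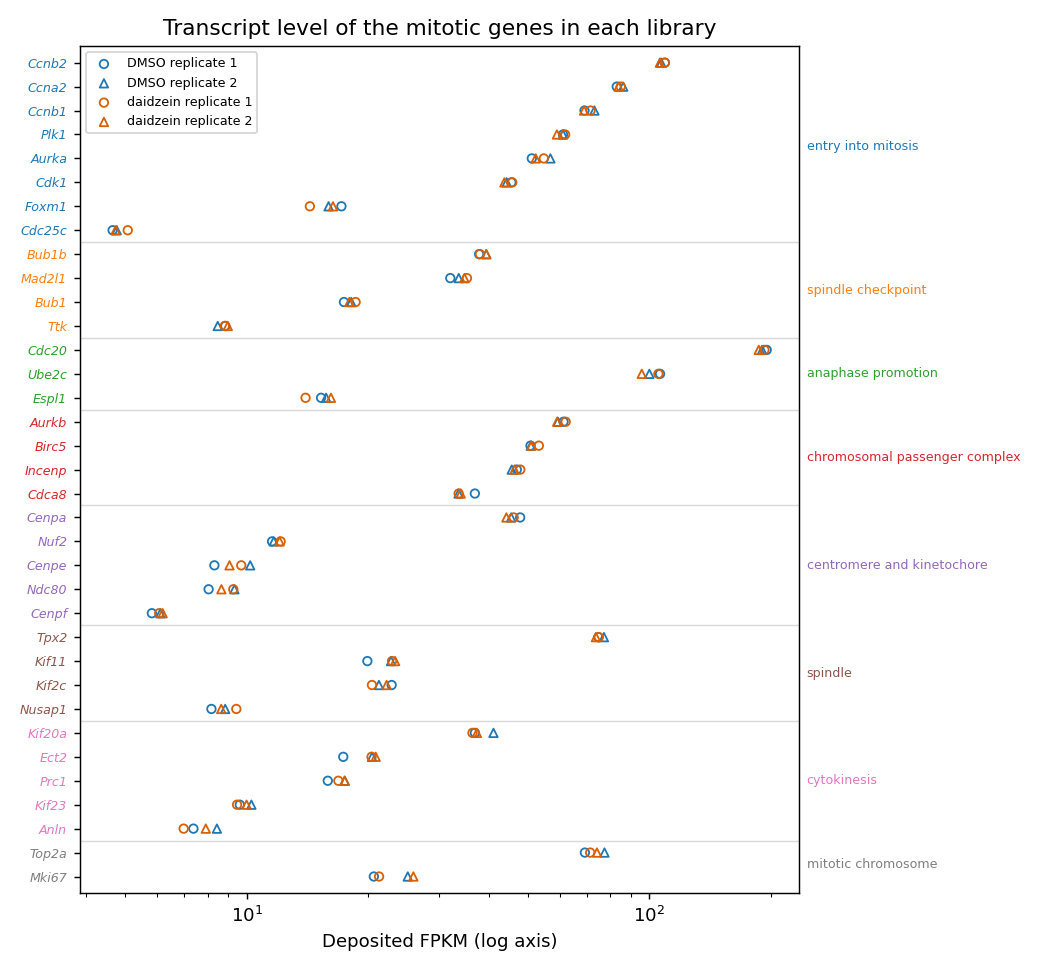
Deposited FPKM (x axis, log scale) of the 35 mitotic genes, grouped by role, with 1 symbol per library (circles replicate 1, triangles replicate 2, blue DMSO, orange daidzein). The 4 symbols of a gene lie close together, while genes differ by up to 39.9-fold, from Cdc25c to Cdc20.

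The deposited FPKM divides by an exonic gene size that joins all annotated exons of a gene. For 16 of the 35 genes it was at least 1.5 times the length of the principal transcript in GENCODE M21, and Cenpa had the highest ratio. Per length of the principal transcript, Ube2c led with 274 FPKM, ahead of Cdc20 with 200 FPKM (199.5), and Birc5 moved from place 11 to place 3. Comparisons between libraries use the same length for a gene and are not touched by this.

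Between daidzein and DMSO, no transcript of the 35 passed the test. The fitted folds, daidzein over DMSO, lay between 0.927 for Foxm1 and 1.09 for Ect2, with 17 genes above 1 and 18 below. By the quasi-likelihood test of edgeR, 0 of 35 passed an adjusted p of 0.05 over all tested genes, each with an adjusted p of 1.00, and 0 of 35 had an unadjusted p under 0.05. DESeq2 and limma also called 0 of 35, and under both 0 of 35 had an unadjusted p under 0.05. Of all 11700 genes DESeq2 called 1 and limma 0, so few calls were to be had among any 35. An unadjusted p under 0.05 was reached by 81 genes with DESeq2 and 461 with limma. Over all 11700 genes the same edgeR fit called 2, or 0.0171%, and 2.91% had an unadjusted p under 0.05. With 1 library left out, the calls over all genes numbered 4 to 17 and those among the 35 stayed at 0. The median log2 difference of the 35 genes was -0.0032, beside -0.0027 over all tested genes.

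The 95% intervals of the folds show how small the differences are that these libraries leave room for. The lowest bound of any of the 35 was 0.834 (Foxm1) and the highest 1.21 (Ect2), so all 35 intervals lay within 1.5-fold in either direction. Of all tested genes, 80.1% had an interval that narrow. All 35 also lay within 1.5-fold when any 1 library was left out, with the lowest bound at 0.765 and the highest at 1.32. These intervals rest on 2 libraries per group and a spread estimated jointly over genes. If the replicates are technical, the intervals leave out the variation between separate cultures and are too narrow for an effect of daidzein. Leaving out a library cannot show this, since the same libraries are used.

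**Figure D3:**
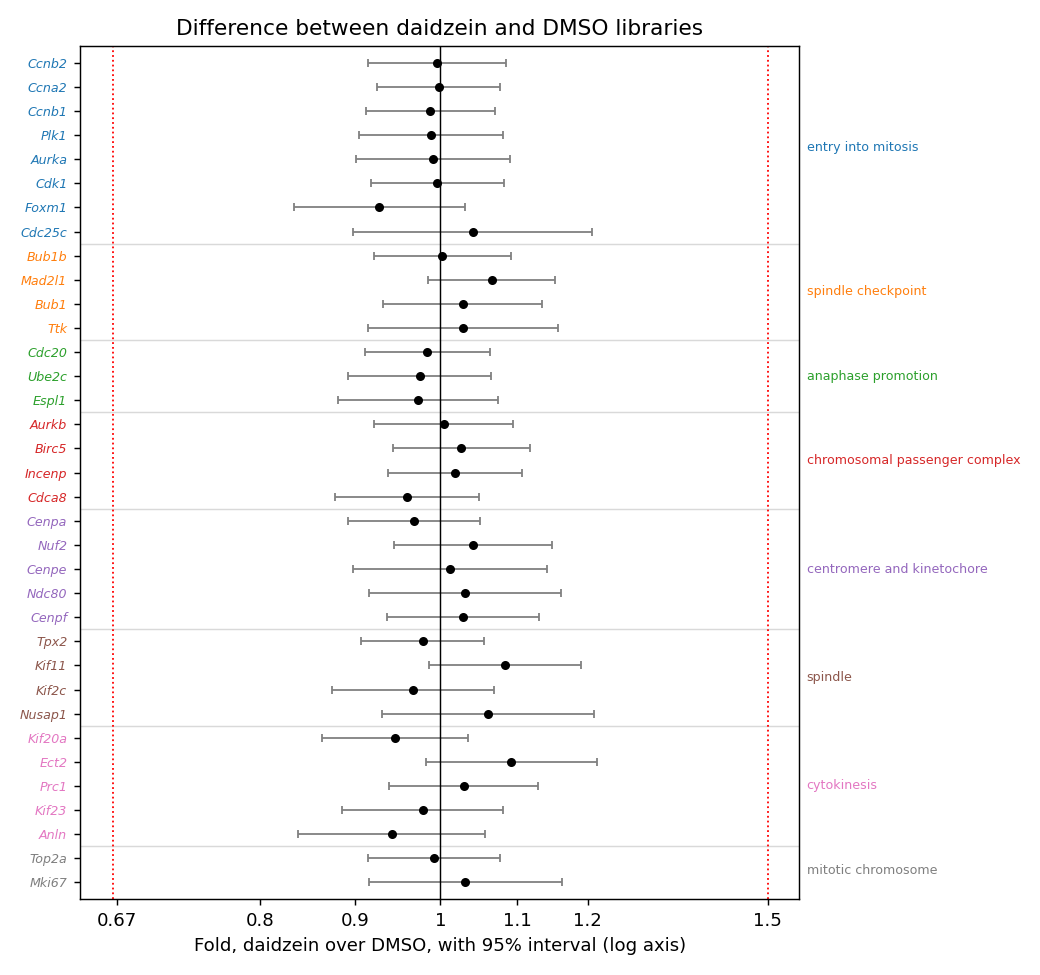
Fold of each mitotic gene, daidzein over DMSO (x axis, log scale), with the 95% interval from edgeR and dotted lines at 1.5-fold in either direction. All 35 intervals include 1 and lie between 0.834 and 1.21.

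Genes of entry into mitosis lay almost level between the groups. Ccnb2, a B-type cyclin and the gene of highest FPKM in this set (ENSMUSG00000032218, GRCm38 chromosome 9, 70407692 to 70421547, minus strand), stood at 168 and 163 normalized CPM (counts scaled by library size) with DMSO and 168 and 162 with daidzein. The daidzein values span the same range as the DMSO values, with a fold of 0.996 and a 95% interval of 0.915 to 1.09. Foxm1, the transcription factor that joins the MuvB complex at many G2/M promoters (ENSMUSG00000001517, chromosome 6, 128362967 to 128376146, plus strand), had the smallest p of the set. It stood at 99.4 and 91.7 CPM with DMSO and at 83.2 and 93.9 with daidzein. The groups overlap, because daidzein replicate 2 exceeded DMSO replicate 2, and the fold of 0.927 (0.834 to 1.03) had an unadjusted p of 0.152. Cyclins A2 and B1 and Cdk1 itself had folds of 0.998, 0.988 and 0.996. Plk1 and Aurka, kinases of centrosome maturation and spindle assembly, had folds of 0.989 and 0.991, and Cdc25c had 1.04. The Ccnb1 count is uncertain, since Ccnb1-ps, Gm12856 and Gm8416 match at least 95% over more than 50% of its transcript. Ccnb1-ps had 73 to 85 reads per library, against 4725 to 5383 for Ccnb1.

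The spindle checkpoint genes delay anaphase until kinetochores are attached. Bub1b, which encodes the checkpoint kinase-like protein BubR1, was the set's most abundant at 38.6 FPKM. It stood at 162 and 168 CPM with DMSO and 163 and 168 with daidzein, with a fold of 1.00 (0.921 to 1.09). Mad2l1, which binds and holds Cdc20, stood at 270 and 281 CPM with DMSO and 298 and 290 with daidzein. Both daidzein libraries lay above both DMSO libraries, but the fold was 1.07 (0.986 to 1.15) with an unadjusted p of 0.105. Bub1 and Ttk, also checkpoint kinases, each had a fold of 1.03. All 4 folds were above 1 and 0 of 4 passed the test. Without DMSO replicate 1, and likewise without daidzein replicate 2, 3 of 4 were above 1.

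The genes that promote anaphase had folds of 0.972 to 0.984, 0 of 3 passed the test, and 2 of 3 folds were above 1 without DMSO replicate 1 or without daidzein replicate 2. Cdc20 (ENSMUSG00000006398, chromosome 4, 118432901 to 118437352, minus strand) stood at 367 and 355 CPM with DMSO and 363 and 348 with daidzein. In each group replicate 2 was lower than replicate 1, and that gap exceeded the gap between groups. Ube2c, the ubiquitin-conjugating enzyme of the anaphase-promoting complex, stood at 278 and 259 CPM with DMSO and at 275 and 248 with daidzein, a fold of 0.975 (0.892 to 1.06). Espl1, which encodes separase, the protease that cuts cohesin, ranged over 123 to 141 CPM in the 4 libraries, and both ends of that range were daidzein libraries.

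The chromosomal passenger complex corrects faulty attachments and steers cytokinesis. Its 4 subunits stood at 34.5 (Cdca8) to 60.4 (Aurkb) FPKM, or, per length of the principal transcript, at 62.4 (Incenp) to 185 (Birc5) FPKM. Aurkb, its kinase, stood at 181 and 174 CPM with DMSO and 184 and 173 with daidzein, with a fold of 1.00 (0.921 to 1.09). Cdca8, which encodes borealin, stood at 192 and 173 CPM with DMSO and 175 and 175 with daidzein. Only DMSO replicate 1 was apart, and the fold was 0.960 (0.877 to 1.05). Birc5 (survivin) had a fold of 1.03 and Incenp, the scaffold, one of 1.02.

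Centromere and kinetochore genes spanned a wide range of levels, from 6.05 FPKM for Cenpf to 45.8 FPKM for Cenpa. Cenpa, the histone H3 variant that marks centromeres, stood at 281 and 265 CPM with DMSO and 271 and 258 with daidzein, and the groups overlap. Nuf2, a subunit of the NDC80 complex that grips microtubules, stood at 73.7 and 73.9 CPM with DMSO and 77.5 and 76.3 with daidzein. The daidzein libraries were both higher, by a fold of 1.04 (0.945 to 1.15) that did not pass the test, with an unadjusted p of 0.392. Its partner Ndc80 had a fold of 1.03 and overlapping groups. Cenpe, a kinetochore motor, differed more between the DMSO libraries, at 72.0 and 87.7 CPM, than between the group means of 79.9 and 81.0 CPM. Cenpf had a fold of 1.03.

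Among the spindle genes Tpx2, which activates Aurka on the spindle, had the highest level at 75.1 FPKM. It stood at 351 and 360 CPM with DMSO and 352 and 343 with daidzein, a fold of 0.979 (0.907 to 1.06). Kif11 (ENSMUSG00000012443, chromosome 19, 37376403 to 37421859, plus strand) had the smallest p of all 35 genes. It stood at 150 and 170 CPM with DMSO and at 172 and 174 with daidzein, so DMSO replicate 1 was low and the other 3 libraries were nearly level. The fold was 1.08 (0.986 to 1.19) with an unadjusted p of 0.0924. Kif2c, a motor that takes microtubules apart, had a fold of 0.967, and Nusap1, a microtubule-binding protein, one of 1.06.

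Among cytokinesis genes, Kif20a, a motor of the central spindle, stood at 161 and 177 CPM with DMSO and 159 and 161 with daidzein. Its fold was 0.946 (0.864 to 1.04), and DMSO replicate 2 was the high library. Ect2, the exchange factor that activates RhoA at the cleavage furrow, stood at 94.0 and 110 CPM with DMSO (110.03) and 111 and 112 with daidzein. DMSO replicate 1 was again the low library. The fold was 1.09 (0.983 to 1.21) with an unadjusted p of 0.0971. Without DMSO replicate 2 the unadjusted p of Ect2 was 0.00218 and its edgeR adjusted p 0.419, and without DMSO replicate 1 its log2 difference was 0.02 with an unadjusted p of 0.805. Prc1, which bundles antiparallel microtubules, had a fold of 1.03, Kif23 had 0.978, and Anln, which encodes anillin, had 0.942.

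The genes of the mitotic chromosome were Top2a and Mki67. Top2a (ENSMUSG00000020914, chromosome 11, 98992943 to 99024189, minus strand) had the most reads of all 35 genes and stood at 626 and 695 CPM with DMSO and 647 and 665 with daidzein. The daidzein libraries fell inside the DMSO range, and the fold was 0.992 (0.914 to 1.08). Mki67, which coats mitotic chromosomes and is the usual stain for cycling cells, stood at 209 and 252 CPM with DMSO and 216 and 260 with daidzein (259.9). In both groups replicate 2 was higher, by 0.27 on the log2 scale in each, while the fitted log2 difference between the groups was 0.04.

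For 33 of the 35 genes, the larger of the 2 gaps between replicates exceeded the difference between daidzein and DMSO, and this held for 81.5% of all tested genes. The median gap between replicates, on the log2 scale, was 0.07 with DMSO and 0.07 with daidzein, against a median difference of 0.04 between the groups. Over all tested genes these were 0.11 and 0.10, against 0.06. A gap between single libraries varies more than a difference between groups of 2, even without an effect. The highest library exceeded the lowest by 1.09-fold in the median of the 35 genes and by 1.24-fold at most, in Mki67. Over all tested genes that median was 1.15-fold. In 5 of the 35 genes (Mad2l1, Nuf2, Cenpf, Kif11 and Ect2) both daidzein libraries lay above both DMSO libraries, and in 0 both lay below. Over all tested genes these shares were 14.7% and 15.0%, or 29.7% in either direction. The 5 of 35 higher, 14.3%, is thus near the background. The 0 of 35 lower, and the 14.3% in either direction, lie under it, and this gap was not tested. Summed over the 35 genes, the libraries stood at 6064 and 6244 CPM with DMSO and 6180 and 6124 with daidzein, and the groups overlap.

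**Figure D4:**
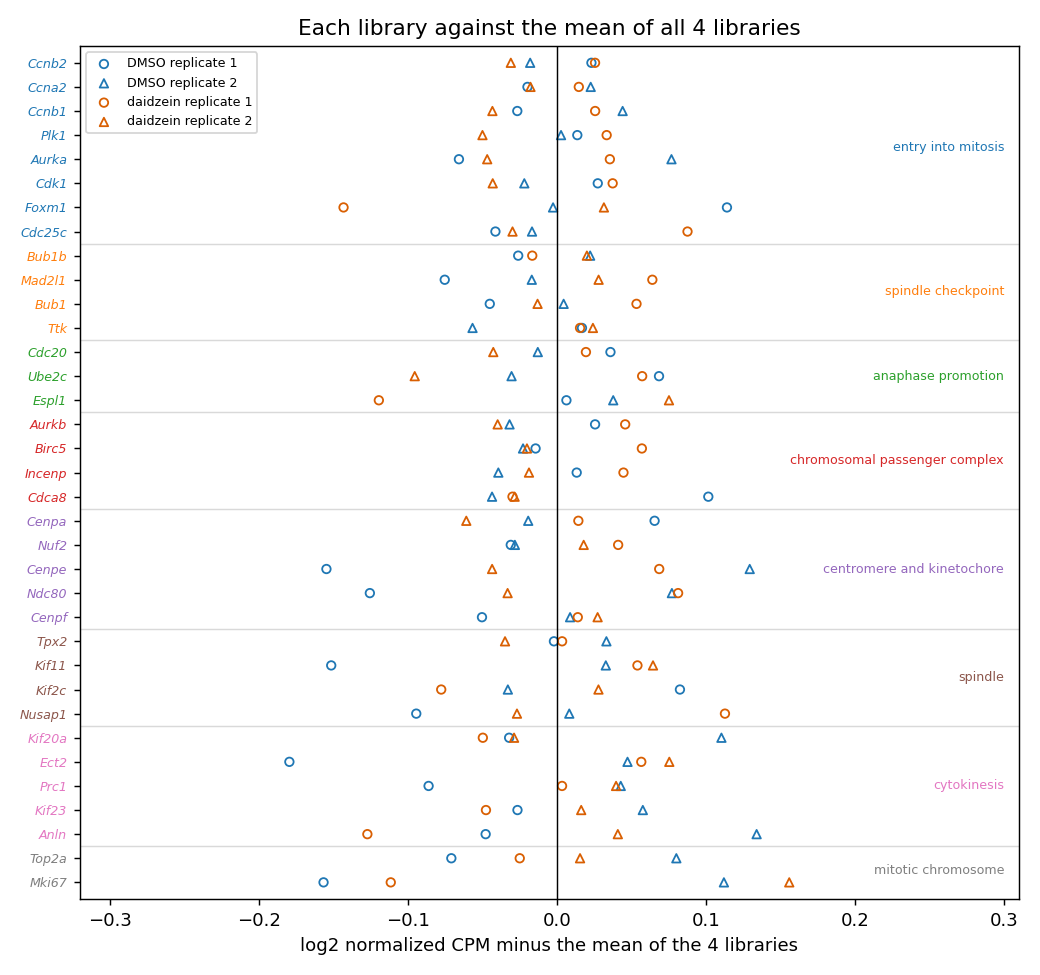
Each library's log2 normalized CPM minus the mean of the 4 libraries (x axis) for the 35 mitotic genes, with symbols as in the plot of FPKM. Blue and orange symbols intermix for most genes, the 5 genes named above have both orange symbols to the right of both blue ones, and in Mki67 both triangles lie to the right of both circles.

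Counts of 6 genes could gain or lose reads where a neighbour overlaps them, since the strand setting of the counting is not given. Ccna2 overlaps Exosc9 on the other strand, Cdc20 overlaps Elovl1, Cdca8 overlaps 9930104L06Rik, Nusap1 overlaps Oip5, Kif20a overlaps Cdc23 and Prc1 overlaps Rccd1. Each neighbour had at least 100 reads in every library.

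Other genes of the same machinery came from a list of 119 genes of cohesin, condensin, the anaphase-promoting complex, further kinetochore, spindle, kinase and cytokinesis genes, and the DREAM and MuvB complexes with NF-Y. All 119 passed the filter on reads, 67 with a fold above 1 and 52 with a fold below 1, and the median log2 difference was 0.01. By edgeR 0 of 119 passed over all genes, and DESeq2 and limma called 0, where they called 1 and 0 of all 11700 tested genes. An unadjusted p under 0.05 was reached by 4 higher genes and 1 lower gene, where the shares over all tested genes were 1.29% and 1.62%. Hmmr, a spindle-assembly factor, had the smallest p. It stood at 97.2 and 98.8 CPM with DMSO and 112 and 113 with daidzein, so replicates were close and the groups were apart. Its fold was 1.15 (1.05 to 1.26), with an unadjusted p of 0.00471 and an edgeR adjusted p of 1.00. Kif20b, a cytokinesis motor, stood at 91.2 and 109 CPM with DMSO and 117 and 116 with daidzein, a fold of 1.17 (1.05 to 1.30). Without DMSO replicate 2 its fold was 1.28 and it passed, with an edgeR adjusted p of 0.0181, and without DMSO replicate 1 its fold was 1.07. Mastl, the kinase also known as Greatwall, stood at 14.7 and 17.4 CPM with DMSO and 17.7 and 21.6 with daidzein. Cit, a cytokinesis kinase named after its value was seen, was the lower gene, at 33.1 and 37.8 CPM with DMSO and 31.5 and 30.3 with daidzein. Neither Mastl nor Cit passed, each with an edgeR adjusted p of 1.00.

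Within that list, 0 of the 32 further kinetochore and centromere genes passed, and 25 of them had a fold above 1, with a median log2 difference of 0.05, and 13 had both daidzein libraries above both DMSO libraries, against 14.7% of all tested genes. Of all 11700 tested genes, 5697 had a fold above 1. In 24 of the 32 the larger gap between replicates exceeded the difference between the groups. The count above 1 among the 32 stayed between 23 and 26 when the scaling, filter, test or library set was changed. These refits use the same 4 libraries, so they are not independent of each other. The 5 kinetochore genes of the main list had 4 folds above 1, but 2 of 5 without DMSO replicate 1 and 2 of 5 without daidzein replicate 1. The other sets had medians between -0.03 and 0.05. Condensin had a median as high as that of the 32, at 0.05, with 7 of 8 folds above 1. That count was 5 of 8 without DMSO replicate 2 and 5 of 8 without daidzein replicate 1. The smallest p of its set belonged to Pttg1 (securin, fold 0.929) in cohesin and its control, Smc4 (1.08) in condensin, Anapc13 (1.11) in the anaphase-promoting complex and Nfyb (an NF-Y subunit, 1.07) in the transcription complex. Their 95% intervals all include 1.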

How the data were processed

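RNA sequencing was compared between 2 DMSO and 2 daidzein libraries, grouped by their titles. Whole-number, unscaled counts and FPKM per gene were deposited by the authors in 1 table, and its FPKM equal count per exonic gene size and library total within 0.005 for all 65326 values with a read. DESeq2, HTSeq 0.6.1, HISAT2 2.0.1 and the build mm9 are listed in the submitters' processing notes, but the deposited coordinates are those of GRCm38: all 35 genes have the chromosome and start of GENCODE M21. Strand setting and tool roles were not stated there.

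Counts were fitted with edgeR 4.0.16 in R 4.3.3 (TMM, filterByExpr, quasi-likelihood F test, Benjamini-Hochberg adjusted p of 0.05 over 11700 genes). The steps were also run on counts simulated as independent libraries with the fitted spread. That run cannot show how they behave if replicates are technical. Intervals are 95% intervals of the edgeR fit to the deposited counts, and CPM are TMM-normalized. Members, lists and tests were chosen with earlier results of these data known. Fully described are, per set, the gene of highest FPKM and that of smallest p (of other mitotic genes, smallest p only). A gene that this rule names is not reported here. Similar transcripts were sought with BLAST 2.17.0 at 95% identity over at least 200 bases. All 6 pairs of libraries differed by more than sampling noise, with a chi-square per degree of freedom of 2.23 to 4.81 over genes with at least 40 pooled reads. A planned search of proteins for a degradation motif was not run. Alternatives were DESeq2 1.42.0, RLE scaling, no filter or 5 CPM in 2 libraries, limma 3.58.1 on log2(FPKM + 1), robust estimation, a prior count of 0.5, a replicate block and each library left out.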

Additional observations from a re-analysis of the deposited data

How the results depend on the processing

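Across 12 alternatives none of the 420 recomputed values of the 35 genes crossed the threshold, and 0 genes of the 35 were called in any. Of these values 38, from 23 genes, had another sign, 37 of them with a library left out. The median log2 difference of the 35 genes lay between -0.0057 and 0.0285 with a library left out. The count of genes called over the whole table, 2, was 1 by DESeq2, 11 without a filter, 1 with the stricter filter, 0 by limma on FPKM (461 at an unadjusted p under 0.05) and 4 to 17 with a library left out. Fitting replicate number as a block in edgeR gave 27, none of them among the 35. Of the 35, 3 then had an unadjusted p under 0.05, beside 748 of all 11700 tested genes. No label pairs same-numbered libraries, and their deviations correlated at 0.09 over genes, in 2 pairs. Yet these 2 pairs had the lowest chi-square values of all pairs, 3.51 for replicates 1 and 2.23 for replicates 2. The DMSO pair had 4.17, the daidzein pair 4.38, and pairs unlike in both group and number 4.05 and 4.81. Each library thus lay nearer to its same-numbered library than to the other one of its group. Whether same-numbered libraries belong together was not tested, and the main fit takes them as unpaired. With a library left out, the single one left in its group is taken to vary as the other group does, and with 3 libraries groups overlap less easily: the 5 genes with groups that do not overlap became 17 to 22, or 48.6 to 62.9%, against 63.1 to 68.0% of all tested genes. The count was 6 with RLE scaling and 4 on deposited FPKM. The median level, 33.9 FPKM, was 44.7 FPKM per principal transcript length, an alternative chosen after seeing the data, as was the count of fold intervals under each alternative. The causes of other changes were not tested. Depth limits Cdc25c, the gene of fewest reads (371 to 431 per library), whose log2 difference had the highest standard error of the 35, 0.10.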
